A study of Mus musculus with 50 samples.

Results

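The genes followed here encode the docking and adaptor proteins that sit directly under the insulin receptor and the IGF1 receptor (IGF1R): Irs1, Irs2, Gab1, Grb2, Shc1, Grb10, Sos1, Ptpn1 and Ptpn11. They were selected by a list of gene symbols, and all 9 were found among the 37701 genes of the RPKM table (reads per kilobase of gene length, scaled to the library size). All 9 also passed the filter on low values, a mean of at least 0.5 RPKM over the tumors, which 16733 genes passed. The table holds 50 mammary gland (MG) tumors, 10 in each of 5 treatment groups: vehicle, insulin, glargine, X10 and IGF1. IGF1 is insulin-like growth factor 1, while glargine and X10 are insulins with an altered sequence. Every tumor came from a female p53R270H/+WAPCre mouse, in which the Cre recombinase under the whey acidic protein promoter switches on 1 mutant p53 allele in mammary epithelium, so the vehicle tumors carried this allele too. Subcutaneous injections began at an age of 8 weeks and were given every other day until a tumor formed, and tumors were collected at 1 cm3, 24 h after the last injection. The doses are not given in the sources used here. The vehicle tumors are titled Untreated in the sample labels, whereas the treatment protocol names a vehicle arm and no untreated arm, so these 10 tumors were taken as the vehicle group. The study picked EMT-like tumors (epithelial to mesenchymal transition) with a latency time near the median of their group, so the 50 tumors are not a random draw of all tumors that formed.

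Insulin and IGF1 make their receptors phosphorylate themselves and the docking proteins Irs1 and Irs2 on tyrosine, and the phosphorylated docking proteins recruit phosphatidylinositol 3-kinase, which leads to AKT. Shc1 and Grb2 carry the signal to Sos1, which loads Ras with GTP and so starts the MAPK/ERK cascade, while Gab1 is a further docking platform that binds the phosphatase Ptpn11. The system also holds brakes: Grb10 binds the activated receptors and dampens them, and the phosphatase Ptpn1 removes phosphate from the receptors and from the IRS proteins. RNA levels report neither the phosphorylation nor the amount of these proteins.

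Irs1, Irs2 and Grb10 varied more between tumors than the other 6 genes, so the 250 bases before their start sites are shown, as RefSeq gives them on GRCm38.p6. Each is written 5′ to 3′ on the strand of the gene, which is the minus strand for all 3 genes. The Irs1 window lies at chr1:82291440-82291689 and the Irs2 window at chr8:11008930-11009179. The RefSeq starts of Irs1 and Irs2 lie outside the genes as GENCODE M21 draws them. Grb10 has a first start behind chr11:12037421-12037670 and a second one behind chr11:12027972-12028221. Capitals mark CACGTG, a core recognised by several basic helix-loop-helix transcription factors.
Irs1: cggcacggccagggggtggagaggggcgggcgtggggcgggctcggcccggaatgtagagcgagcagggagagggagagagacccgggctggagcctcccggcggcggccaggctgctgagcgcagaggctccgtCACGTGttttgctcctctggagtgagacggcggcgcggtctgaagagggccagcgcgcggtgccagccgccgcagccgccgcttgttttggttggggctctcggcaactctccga
Irs2: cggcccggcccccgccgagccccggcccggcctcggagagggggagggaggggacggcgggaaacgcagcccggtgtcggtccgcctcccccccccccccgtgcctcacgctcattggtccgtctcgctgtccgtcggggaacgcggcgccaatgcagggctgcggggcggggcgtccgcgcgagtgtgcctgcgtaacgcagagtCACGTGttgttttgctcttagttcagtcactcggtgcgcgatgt
Grb10 first start: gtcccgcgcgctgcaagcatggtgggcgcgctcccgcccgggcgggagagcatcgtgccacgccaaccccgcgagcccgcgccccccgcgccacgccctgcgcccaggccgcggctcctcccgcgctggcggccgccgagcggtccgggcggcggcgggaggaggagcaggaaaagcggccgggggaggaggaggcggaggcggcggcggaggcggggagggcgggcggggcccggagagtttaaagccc
Grb10 second start: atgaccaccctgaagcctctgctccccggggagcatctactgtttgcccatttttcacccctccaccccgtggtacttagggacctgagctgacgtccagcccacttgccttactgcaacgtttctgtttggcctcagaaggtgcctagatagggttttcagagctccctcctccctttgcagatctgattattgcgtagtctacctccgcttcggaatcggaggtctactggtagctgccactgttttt
CACGTG was found in 2 of 13 windows of the 9 genes, those of Irs1 and Irs2, against 6.021% of 32851 RefSeq windows of the same length. In Irs1 109 bases separated it from the start and in Irs2 38 bases, and in both it stood in the same stretch, GTCACGTGTT. The longer form GTCACGTG was present in 1.848% of all windows. The Irs1 window held 28 CG pairs, that of Irs2 34 and that of the first Grb10 start 40, whereas the second Grb10 start had 8 and the median of all windows was 6. The 11 motifs reported here were searched on both strands. These were CACGTG with its longer form GTCACGTG, the CREB site TGACGTCA with its part TGACG, the FOXO core GTAAACA, the NF-Y core CCAAT and its form GATTGGC, the SP1 core GGGCGG, the ETS core CCGGAAG, the AP-1 site TGANTCA and the TCF site CTTTGAT. The FOXO core was not found in any of the 13 windows and occurred in 3.166% of all windows, while the full CREB site was found in the Ptpn11 window and occurred in 1.546% of all windows. A match describes the letters only, since no binding was measured in these tumors.

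Library depth, recovered from the steps between RPKM values, ranged from 26.7 to 51.9 M reads. The X10 group had the lowest median depth (35.4 M reads) and the vehicle group the highest (44.0 M reads). Even the least expressed of the 9 genes had many reads: Irs2 had between 204 and 3692 reads per tumor (median 877), and Irs1 between 253 and 6845 (median 1398). The tumors were mixed tissue. All 7 epithelial markers were detected, with a summed level between 9.91 and 5600 RPKM (median 284.9), and all 6 leukocyte markers, with a summed level between 436 and 1545 RPKM. In such bulk RNA, fewer cells of a type and less RNA per cell cannot be told apart. A score for long transcripts, the mean z-score of 4252 genes with over 6 kb of exon minus that of 1016 genes with under 1.5 kb, ranged from -1.98 to 0.77 and was lowest in IGF1_160 (-1.98), glargine_47 (-1.57) and Untreated_174 (-1.51). Names are those of the labels. These 3 libraries stood apart from the rest, and the relations between genes and scores over the tumors are given with and without them.

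On the RPKM scale, which allows a comparison between genes, the brake Ptpn1 was the most abundant of the 9 genes, with a mean of 205 ± 32.1 RPKM (SD, n = 50), followed by Shc1 with 166 ± 31.2 RPKM. Grb10 (72.7 ± 63.8 RPKM), Grb2 (52.3 ± 8.72 RPKM) and Ptpn11 (32.9 ± 6.40 RPKM) came next. The docking proteins and the exchange factor were far lower, with Gab1 at 6.75 ± 1.90 RPKM, Sos1 at 4.84 ± 1.28 RPKM, Irs1 at 4.43 ± 2.64 RPKM and Irs2 at 3.78 ± 2.36 RPKM. Between neighbours in this order, Ptpn11 exceeded Gab1 in 50 of 50 tumors and Grb2 exceeded Ptpn11 in 49. Shc1 exceeded Grb10 in 44 tumors, Gab1 exceeded Sos1 in 42 and Ptpn1 exceeded Shc1 in 39. The other neighbours were less clearly ordered. Grb10 exceeded Grb2 in 21 tumors, with a mean log2 difference of 0.03 ± 1.16 (SD), Sos1 exceeded Irs1 in 32, and Irs1 exceeded Irs2 in 30.

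**Figure D1:**
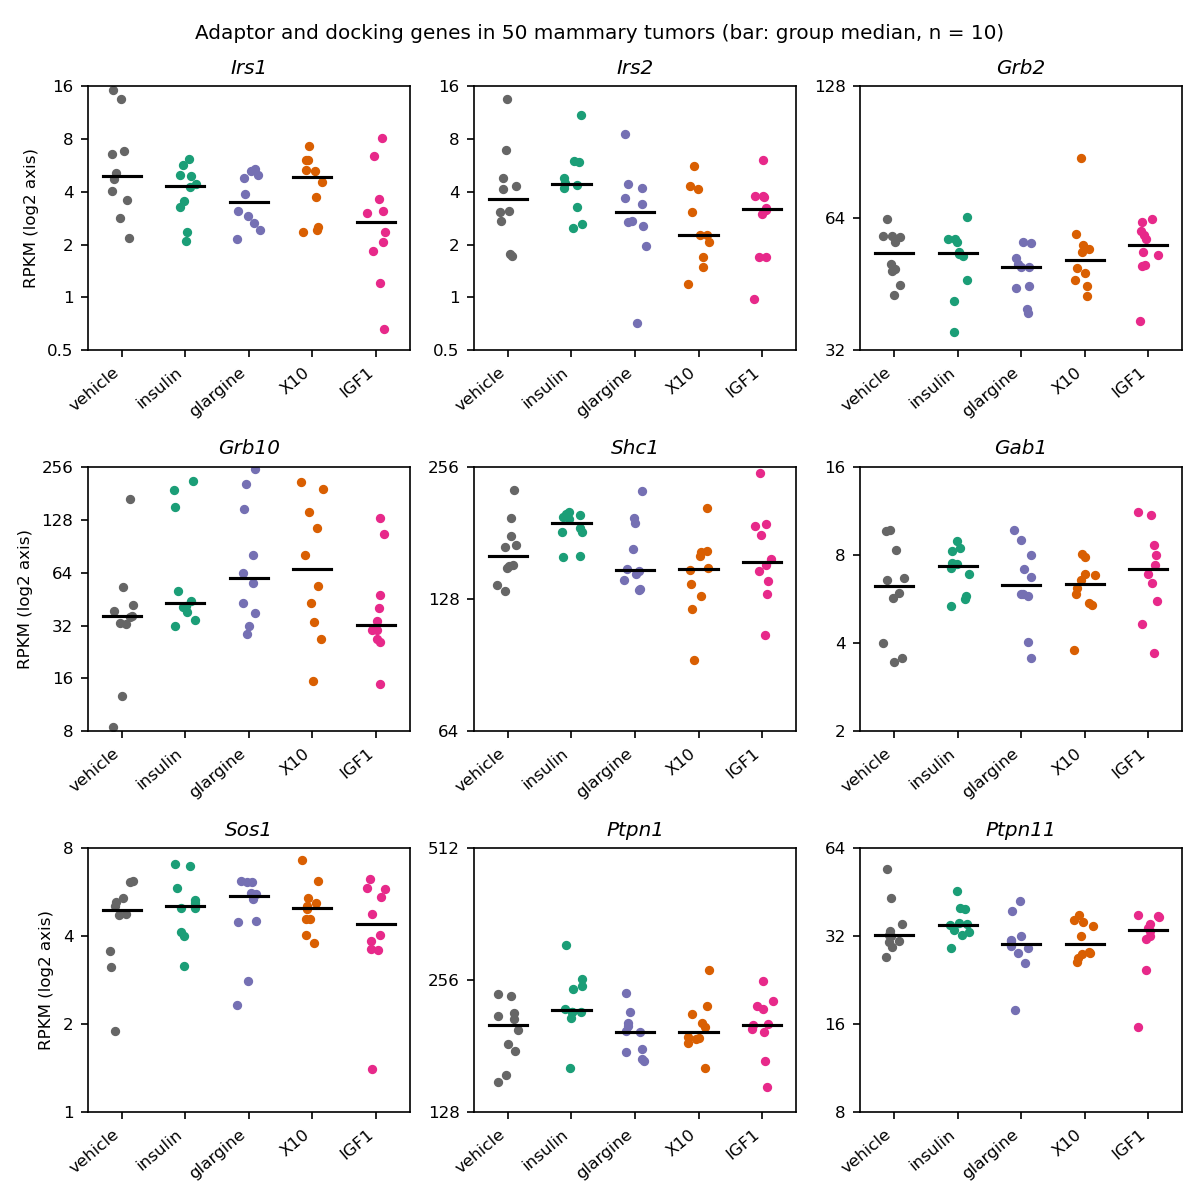
Level of each of the 9 genes in RPKM on a log2 axis, with 1 point per tumor and a bar at the median of the 10 tumors of a group. The 5 groups overlap for all 9 genes, and Irs1, Irs2 and Grb10 spread most, with Grb10 reaching from 8.42 to 249 RPKM.

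The relatives of these genes completed the picture. Of the IRS family, Irs3 (mean 0.309 RPKM) and Irs4 (0.0483 RPKM) were below the filter, so Irs1 and Irs2 made up nearly all IRS transcript. Sos2, the second Ras exchange factor of its family, was at 12.1 ± 3.97 RPKM and above the mean of Sos1. Gab2 had a mean of 4.54 RPKM and Gab3 of 1.89 RPKM. Among the relatives of Grb10, Grb14 had a mean of 6.68 RPKM with a range from 0.768 to 52.9 RPKM, and Grb7 had a median of 0.290 RPKM with a highest value of 50.2 RPKM. Shc2 (2.68 RPKM), Shc4 (2.02 RPKM) and Shc3 (0.262 RPKM) were minor beside Shc1. Of the related phosphatases Ptpn6, which is best known from blood cells, was at 201 ± 72.1 RPKM and Ptpn2 at 23.3 ± 4.06 RPKM. The receptors themselves were moderate, with Insr at 8.47 ± 2.09 RPKM and Igf1r at 6.27 ± 2.44 RPKM.

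The 9 genes differed widely in how much they varied. Grb10 spanned a 29.6-fold range (SD of log2 values 1.15), more than 94.97% of all tested genes by SD. Irs1 spanned 23.0-fold and Irs2 18.9-fold, with SDs of 0.69 and 0.70 against a median of 0.42 over all tested genes. At the other end, Ptpn1 spanned 2.11-fold, which placed its SD above only 2.76% of tested genes, and Grb2 spanned 2.49-fold. Differences between the 5 group means made up 18.6% of the variance of Irs1, 17.3% of that of Shc1, 14.4% of Irs2 and Ptpn1, 14.2% of Grb10 and 5.13% of Gab1, against a median of 9.29% over all tested genes. Such a share is above 0 also where treatment has no effect. Of all tested genes, 13.2% had a share at or above that of Irs1. Most of the variation of the 9 genes was therefore between tumors of the same treatment.

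To compare treatments, each tested gene was fitted with limma on log2(RPKM + 0.5) over all 5 groups, and genes with a Benjamini-Hochberg adjusted p under 0.05 were called. The fold changes below are on this log2(RPKM + 0.5) scale, which slightly understates the change of the lowest genes, and their errors are standard errors. Where tumors are counted above or below the mean of a group, that mean is taken over its log2 values, not over its RPKM. None of the 9 genes was called in any of the 9 comparisons. In the test of any difference among the 5 groups, 0 of 9 were called against 0.102% of all tested genes, and 1 of 9 had an unadjusted p under 0.05 against 13.1%. That gene was Irs1 (p = 0.0427, adjusted p = 0.369). With limma voom on recovered reads the counts over the 5 groups were also 0 of 9 and 1 of 9. The comparisons of a treatment with vehicle share the 10 vehicle tumors, and those with insulin share the 10 insulin tumors.

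Irs1, the first of the docking proteins, was on average lower in each treatment than in vehicle tumors, without passing the test. Its lowest, median and highest levels were 2.17, 4.92 and 15.1 RPKM in vehicle tumors, 2.08, 4.32 and 6.11 RPKM in insulin tumors, 2.15, 3.50 and 5.40 RPKM in glargine tumors, 2.35, 4.87 and 7.32 RPKM in X10 tumors and 0.656, 2.68 and 8.10 RPKM in IGF1 tumors. All groups overlapped, and the lowest tumor was IGF1_158. The highest tumors were Untreated_197 (15.1 RPKM) and Untreated_189 (13.4 RPKM), and the next was IGF1_143 (8.10 RPKM). In IGF1 against vehicle tumors the log2 fold change of Irs1 was -0.90 ± 0.28 (95% interval -1.48 to -0.33, p = 0.00262, adjusted p = 0.334), and 8 of 10 IGF1 tumors lay below the vehicle mean of log2 values. Leaving out each tumor in turn moved this value between -1.06 and -0.74. The log2 fold changes in insulin, glargine and X10 tumors were -0.41 ± 0.28, -0.54 ± 0.28 and -0.32 ± 0.28, with adjusted p between 0.608 and 0.796. Without Untreated_197 they were -0.26, -0.39 and -0.17, and leaving out Untreated_189 as well was not tested. In glargine, 10 of 10 tumors lay below the vehicle mean of log2 values, which Untreated_197 and Untreated_189 raised.

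Irs2, which shares much of its partners with Irs1, had its highest group median in insulin and its lowest in X10. Its lowest, median and highest levels were 1.73, 3.62 and 13.5 RPKM in vehicle tumors, 2.49, 4.44 and 10.9 RPKM in insulin tumors, 0.713, 3.04 and 8.57 RPKM in glargine tumors, 1.19, 2.27 and 5.57 RPKM in X10 tumors and 0.974, 3.20 and 6.09 RPKM in IGF1 tumors. The groups overlapped throughout. Against insulin, X10 tumors differed by -0.72 ± 0.29 on the log2 scale (p = 0.0189, adjusted p = 0.313), and 9 of 10 X10 tumors lay below the insulin mean. For the 20 X10 and IGF1 tumors together against the 30 vehicle, insulin and glargine tumors, the comparison the study made for compounds with high affinity towards the IGF1R, Irs2 differed by -0.42 ± 0.19 (p = 0.0329, adjusted p = 0.413), with 14 of 20 tumors below the mean of the other groups.

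Because Irs1 and Irs2 are docking proteins for the same receptors, their ratio was also compared. Irs2 exceeded Irs1 in 4 of 10 vehicle tumors, 7 insulin tumors, 2 glargine tumors, 2 X10 tumors and 5 IGF1 tumors. The median log2 ratio of Irs2 to Irs1 was -0.46 in vehicle, 0.14 in insulin, -0.24 in glargine, -0.78 in X10 and -0.09 in IGF1 tumors, and single tumors lay between -2.28 and 1.59. The difference of insulin from vehicle tumors was 0.61 (two-sided permutation test, p = 0.128, adjusted p = 0.639), and adjusted p over the 5 comparisons were between 0.639 and 0.650.

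Gab1, the docking protein that binds Ptpn11, had group medians of 6.25 RPKM in vehicle, 7.33 in insulin, 6.30 in glargine, 6.38 in X10 and 7.16 RPKM in IGF1 tumors. Its 50 values ranged from 3.44 to 11.2 RPKM. The log2 fold changes against vehicle lay between 0.04 ± 0.18 in X10 and 0.22 ± 0.18 in insulin tumors, and the interval for insulin reached from -0.14 to 0.58.

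Grb10, the adaptor that dampens the receptors, had the largest spread of the 9 genes, and the largest log2 fold changes of the 9 in insulin, glargine and X10 against vehicle tumors and in IGF1 against insulin tumors. In IGF1 against vehicle tumors that of Irs1 was larger, and in the other comparisons that of Irs2. Its lowest, median and highest levels were 8.42, 36.2 and 168 RPKM in vehicle tumors, 31.7, 42.9 and 212 RPKM in insulin tumors, 28.7, 59.8 and 249 RPKM in glargine tumors, 15.5, 67.4 and 212 RPKM in X10 tumors and 14.9, 32.1 and 131 RPKM in IGF1 tumors. Each group held tumors of low and of high level, and the groups overlapped. Above 100 RPKM, a limit set after the values were seen, lay 13 tumors, of which 1 was a vehicle tumor, 3 were insulin, 3 glargine, 4 X10 and 2 IGF1 tumors. The log2 fold change against vehicle was 1.04 ± 0.48 in glargine (p = 0.0353, adjusted p = 0.789, 8 of 10 tumors above the vehicle mean of log2 values), 0.95 ± 0.48 in X10 (p = 0.0529, adjusted p = 0.457, 7 of 10), 0.87 ± 0.48 in insulin (p = 0.0775, adjusted p = 0.498, 9 of 10) and 0.19 ± 0.48 in IGF1 tumors (adjusted p = 0.967). Untreated_174, the lowest of all tumors for Grb10, was also among the 3 lowest for the long-transcript score, and leaving out each tumor in turn moved the value for glargine between 0.82 (without Untreated_174) and 1.29 (without Untreated_197). Over the 50 tumors Grb10 fell with library size (r = -0.34, p = 0.0156, adjusted p = 0.0401 over 18 relations). By rank the relation was of like size but was not called (rho = -0.32, adjusted p = 0.0767). Without the 2 tumors of most extreme library size r was -0.19 (adjusted p = 0.349). Without the 3 libraries of lowest long-transcript score r was -0.33 (adjusted p = 0.0999). Within treatments, after centring, r was -0.23. With library size as a covariate, Grb10 no longer had an unadjusted p under 0.05 in glargine against vehicle tumors.

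**Figure D2:**
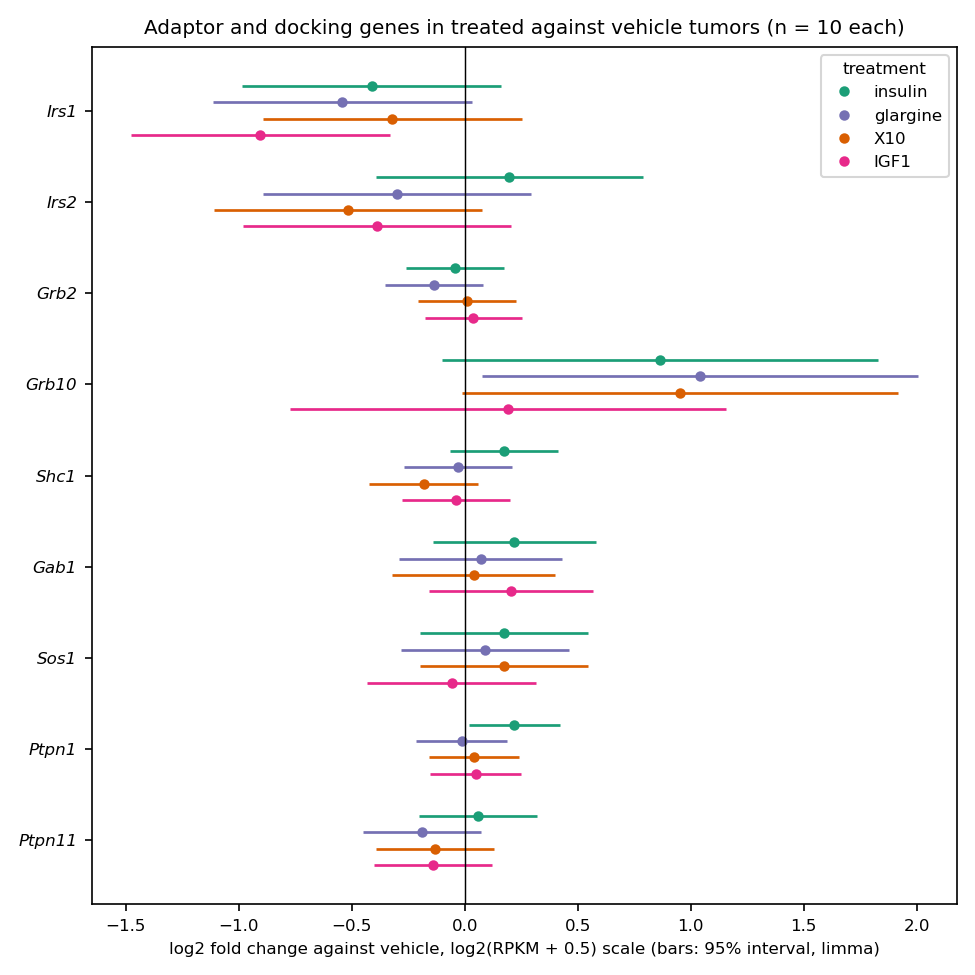
Log2 fold change of the 9 genes in insulin, glargine, X10 and IGF1 tumors against vehicle tumors, as limma estimates with 95% intervals (n = 10 per group). Intervals of Grb10, Irs1 and Irs2 are wide, those of Grb2 and Ptpn1 are narrow, and 0 of 9 genes were called in each comparison.

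Shc1, the adaptor that links the receptors to Grb2, had its narrowest range in insulin tumors and its lowest mean in X10 tumors. Its lowest, median and highest levels were 133, 160.7 and 227 RPKM in vehicle tumors, 159.9, 191 and 202 RPKM in insulin tumors, 134, 149 and 225 RPKM in glargine tumors, 92.8, 149.9 and 207 RPKM in X10 tumors and 106, 156 and 248 RPKM in IGF1 tumors. X10 and insulin tumors overlapped, but 9 of 10 X10 tumors lay below the insulin mean. The log2 fold change of X10 against insulin was -0.36 ± 0.12 (95% interval -0.60 to -0.12, p = 0.00436, adjusted p = 0.179), the smallest adjusted p of the 9 genes in any comparison. The X10 and IGF1 tumors together differed from the other groups by -0.16 ± 0.08 (p = 0.0458, adjusted p = 0.461, 15 of 20 tumors below their mean).

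Grb2, which couples tyrosine-phosphorylated proteins to Sos1, was the steadiest adaptor. Group medians were 53.3 RPKM in vehicle, 53.3 in insulin, 49.5 in glargine, 51.4 in X10 and 55.5 RPKM in IGF1 tumors, and the range over all tumors was 35.2 to 87.6 RPKM. Its log2 fold changes against vehicle lay between -0.14 ± 0.11 in glargine and 0.04 ± 0.11 in IGF1 tumors. For IGF1 the 95% interval of -0.18 to 0.25 leaves room for small differences in either direction.

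Sos1, the exchange factor for Ras, had group medians of 4.90 RPKM in vehicle, 5.08 in insulin, 5.47 in glargine, 5.01 in X10 and 4.40 RPKM in IGF1 tumors. Its values ranged from 1.41 to 7.29 RPKM, and the lowest tumors were IGF1_160, Untreated_174 and glargine_47, the same 3 libraries that were lowest for the long-transcript score. The log2 fold changes against vehicle were between -0.06 ± 0.18 and 0.17 ± 0.18. With the long-transcript score as a covariate, an alternative added after seeing the data, the value for insulin was -0.11 instead of 0.17.

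Ptpn1, the phosphatase also known as PTP1B, had its highest group mean in insulin tumors. Its lowest, median and highest levels were 150.03, 202 and 238 RPKM in vehicle tumors, 160.98, 218 and 308 RPKM in insulin tumors, 168, 195.4 and 239 RPKM in glargine tumors, 161.5, 194.8 and 269 RPKM in X10 tumors and 146, 203 and 254 RPKM in IGF1 tumors. The groups overlapped, although 9 of 10 insulin tumors lay above the vehicle mean. The log2 fold change of insulin against vehicle was 0.22 ± 0.10 (p = 0.0332, adjusted p = 0.409), and that of glargine against insulin -0.23 ± 0.10 (p = 0.0247, adjusted p = 0.990, 9 of 10 glargine tumors below the insulin mean). The leukocyte marker score, with which Ptpn1 varied over the tumors, also had its highest group mean in insulin (0.296) and its lowest in vehicle (-0.321). With epithelial, fibroblast and leukocyte scores as covariates, the log2 fold change of Ptpn1 in insulin against vehicle tumors was 0.16 (adjusted p = 0.674). Over the other settings its adjusted p lay between 0.255 and 0.674, and between 0.220 and 0.595 when each tumor was left out in turn.

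Ptpn11, the phosphatase SHP2 that promotes Ras signaling, showed group medians of 32.2 RPKM in vehicle, 35.0 in insulin, 30.2 in glargine, 30.2 in X10 and 33.7 RPKM in IGF1 tumors, within a range of 15.6 to 54.4 RPKM. The log2 fold changes against vehicle lay between -0.19 ± 0.13 in glargine and 0.06 ± 0.13 in insulin tumors.

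Read by comparison, 7 of 9 genes were higher and 2 lower in insulin than in vehicle tumors, with a median log2 fold change of 0.17 against 0.03 over all tested genes. There 0 of 9 genes were called against 0% of tested genes, and 1 of 9 (Ptpn1) had an unadjusted p under 0.05 against 11.1%. The median long-transcript score was 0.27 in insulin and 0.04 in vehicle tumors. With this score as a covariate, added after seeing the data, Irs2 (-0.05), Sos1 (-0.11) and Ptpn11 (-0.08) were lower in insulin than in vehicle tumors. The part of the score in the count of higher genes was not tested. Glargine against vehicle gave 0 of 9 against 0%, and 1 of 9 unadjusted (Grb10) against 6.23%. X10 against vehicle gave 0 of 9 against 0.0657%, and 0 of 9 unadjusted against 11.0%. IGF1 against vehicle gave 0 of 9 against 0.00598%, and 1 of 9 unadjusted (Irs1) against 8.84%. For X10 and IGF1 against the other 3 groups, 0 of 9 were called against 0.155%, and 2 of 9 unadjusted (Irs2 and Shc1) against 10.5%. Limma voom gave the same counts in these 5 comparisons, but the unadjusted counts moved with the scaling. For X10 and IGF1 against the other 3 groups they were 0 of 9 with quantile normalization and 1 of 9 with upper quartile scaling. For X10 against vehicle they were 1 of 9 with either, and for glargine against vehicle 2 of 9 with quantile normalization.

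The insulin-like molecules were also compared with insulin itself, in 3 pairs. Glargine against insulin gave 0 of 9 calls against 0% of tested genes, and 1 of 9 unadjusted (Ptpn1) against 3.96%. X10 against insulin gave 0 of 9 against 0.102%, and 2 of 9 unadjusted (Irs2 and Shc1) against 11.3%. IGF1 against insulin gave 0 of 9 against 0.00598%, and 0 of 9 unadjusted against 7.30%. Voom counts were the same. With quantile normalization or upper quartile scaling, IGF1 against insulin gave 2 of 9 unadjusted, and glargine against insulin gave 2 of 9 with quantile normalization. In these pairs 8, 6 and 8 of the 9 genes were lower than in insulin tumors, with median log2 fold changes of -0.15, -0.18 and -0.21 against -0.01, -0.07 and -0.01 over all tested genes. These 3 comparisons share the insulin tumors, so a high or low insulin group enters all of them. The intervals do not show that the molecules act alike: for Irs2 they reached from -1.09 to 0.09 for glargine, from -1.31 to -0.12 for X10 and from -1.18 to 0.01 for IGF1.

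A wider list of pathway genes was looked at as well. It held 84 genes (receptors and ligands, docking proteins, adaptors, Ras regulators, phosphatases, PI3K and AKT, and inhibitors of the IRS proteins), the 9 genes among them. Of these, 77 were tested, and none was called in any of the 9 comparisons. Over all tested genes between 0% and 0.155% were called, so the absence of calls in a list of this size is near that share. At an unadjusted p under 0.05, 10 of 77 (against 13.1% of all tested genes) differed among the 5 groups, 7 were higher and 4 lower in insulin, 1 higher and 4 lower in glargine, 0 higher and 4 lower in X10, and 4 higher and 5 lower in IGF1 tumors against vehicle. Over all tested genes the same shares were 5.98% higher and 5.17% lower in insulin, 3.31% and 2.92% in glargine, 2.75% and 8.25% in X10, and 4.49% and 4.34% in IGF1 tumors. The median log2 fold change of the list was 0.11 in insulin, 0.02 in glargine, 0.04 in X10 and -0.05 in IGF1 tumors, against 0.03, 0.02, -0.03 and 0.02 over all tested genes. Among close relatives, Gab3 had a log2 fold change of 0.62 ± 0.19 (p = 0.00219, adjusted p = 0.328) and Grb7 of -1.88 ± 0.64 (p = 0.00495, adjusted p = 0.361) in IGF1 against vehicle tumors. Neither direction was particular to IGF1. In insulin, glargine and X10 against vehicle, Gab3 was at 0.49, 0.32 and 0.19 and Grb7 at -1.69, -0.81 and -0.78. The median of Grb7 was below 0.5 RPKM, so it passed the filter through its higher tumors. Insr was at -0.09 ± 0.16 and Igf1r at -0.20 ± 0.20 in IGF1 against vehicle tumors, with adjusted p of 0.950 and 0.870.

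Across the 50 tumors, irrespective of treatment, several of the 9 genes rose and fell together. Of 36 pairs, 9 were correlated at an adjusted p under 0.05 (permutation test with 100000 resamples), and all 9 were positive. The strongest was Sos1 with Ptpn11 (r = 0.58, rho = 0.39, p = 7e-05, adjusted p = 0.00252), followed by Irs2 with Sos1 (r = 0.50, rho = 0.36), Irs1 with Sos1 (r = 0.49, rho = 0.51), Irs2 with Ptpn11 (r = 0.49, rho = 0.30) and Irs2 with Gab1 (r = 0.47, rho = 0.40). Gab1 with Sos1, Irs1 with Ptpn11, Shc1 with Gab1 and Irs2 with Shc1 completed the list, with r between 0.36 and 0.43. Irs1 and Irs2 themselves had r = 0.21, which was not called. Centred within treatments, 8 of these 9 pairs were called, 5 without the 2 tumors farthest from the median of the first gene, and 4 by rank correlation.

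These pairs moved together with the long-transcript score. Sos1 followed it with r = 0.91 (rho = 0.84, p = 1e-05, the smallest p the resamples allow, and r = 0.87 without the 2 tumors farthest from its median), Ptpn11 with r = 0.62 (rho = 0.41), Gab1 with r = 0.52 (rho = 0.43), Irs2 with r = 0.47 (rho = 0.30), Shc1 with r = 0.39 (rho = 0.35) and Irs1 with r = 0.36 (rho = 0.27). By rank, Irs1 (adjusted p = 0.140), Irs2 (adjusted p = 0.103) and Shc1 (adjusted p = 0.0576) were not called. Without the 2 farthest tumors, Irs1 (r = 0.28, adjusted p = 0.127), Irs2 (r = 0.29, adjusted p = 0.112) and Ptpn11 (r = 0.36, adjusted p = 0.0609) were not called. Without IGF1_160, glargine_47 and Untreated_174, r was 0.83 for Sos1, 0.39 for Ptpn11 and 0.38 for Shc1, which were called, and 0.31 for Gab1 (adjusted p = 0.133), 0.23 for Irs2 and 0.23 for Irs1 (adjusted p = 0.211 for both), which were not. By rank over all 50 tumors (adjusted p = 0.0226) and without the 2 farthest tumors (r = 0.41, adjusted p = 0.0311), Gab1 was called. The calls for Irs1 and Irs2 therefore rest on a few tumors, while that for Gab1 depended on the setting. Grb10 (r = 0.30, adjusted p = 0.0735), Grb2 (r = 0.04) and Ptpn1 (r = 0.01) were not called. The 9 genes were left out of the score, but some are long by its limit of 6 kb of exon. Sos1 has 10.59 kb, Irs1 9.14 kb, Grb10 9.09 kb, Ptpn11 7.49 kb and Irs2 6.32 kb. Below the limit are Shc1 (5.64 kb), Ptpn1 (5.53 kb), Gab1 (5.08 kb) and Grb2 (2.92 kb). Once the score was removed from both genes of a pair, 1 of the 9 pairs was called, Irs1 with Sos1 (r = 0.41, adjusted p = 0.0477). The pair of Irs1 and Gab1 was then called with a negative r of -0.44 (adjusted p = 0.0477), but in this setting only. As measured it had r = -0.16 and rho = -0.04, and r = 0.06 without the 2 tumors farthest from the Irs1 median. Without the 3 libraries of lowest score it had r = -0.35 (adjusted p = 0.115). Without IGF1_160, glargine_47 and Untreated_174, 0 of 36 pairs were called, and Sos1 with Ptpn11 had r = 0.35 (p = 0.0150, adjusted p = 0.115). The removal of the score and of the 3 tumors was chosen after seeing the data.

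**Figure D3:**
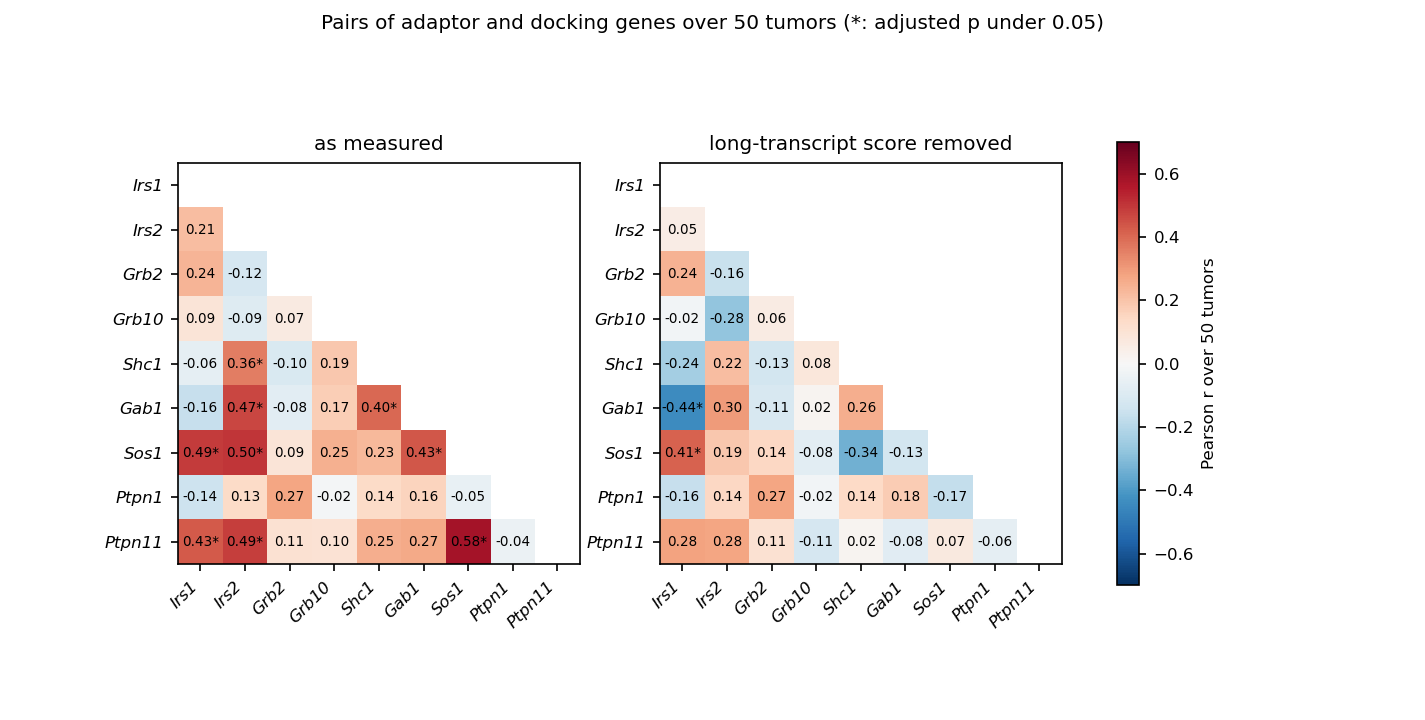
Pearson r of each pair of the 9 genes over 50 tumors, as measured (left) and with the long-transcript score removed from both genes (right), where an asterisk marks an adjusted p under 0.05 over the 36 pairs. On the left 9 pairs carry an asterisk, all positive, and on the right 2 do, Irs1 with Sos1 (0.41) and Irs1 with Gab1 (-0.44).

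Against 7 lists of cell type and proliferation markers, 2 of 63 relations were called. Ptpn1 rose with the leukocyte markers (r = 0.58, rho = 0.59, p = 1e-05, the smallest possible, adjusted p = 0.00063), a relation that had r = 0.55 centred within treatments, 0.55 without the 2 tumors of most extreme leukocyte score, 0.58 with the long-transcript score removed and 0.66 without the 3 libraries of lowest long-transcript score. Sos1 rose with the proliferation markers (r = 0.44, p = 0.00145, adjusted p = 0.0457), but with rho = 0.25, r = 0.31 without the 2 most extreme tumors r = 0.05 with the long-transcript score removed and r = 0.12 without the 3 libraries, so this relation rests on a few tumors. Centred within treatments it had r = 0.46 and stayed called (adjusted p = 0.0313). Some relations were called in another setting than the main one. Grb2 with the leukocyte markers had r = 0.38 (adjusted p = 0.115) as measured and 0.42 (adjusted p = 0.0375) centred within treatments, and Ptpn11 with the proliferation markers had 0.38 (adjusted p = 0.115) and 0.44 (adjusted p = 0.0313). Sos1 with the skeletal muscle markers had r = -0.26 (adjusted p = 0.339) and rho = -0.45 (adjusted p = 0.0359). Irs1, Irs2, Shc1, Gab1 and Grb10 were not called with any of the lists in these settings.

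**Figure D4:**
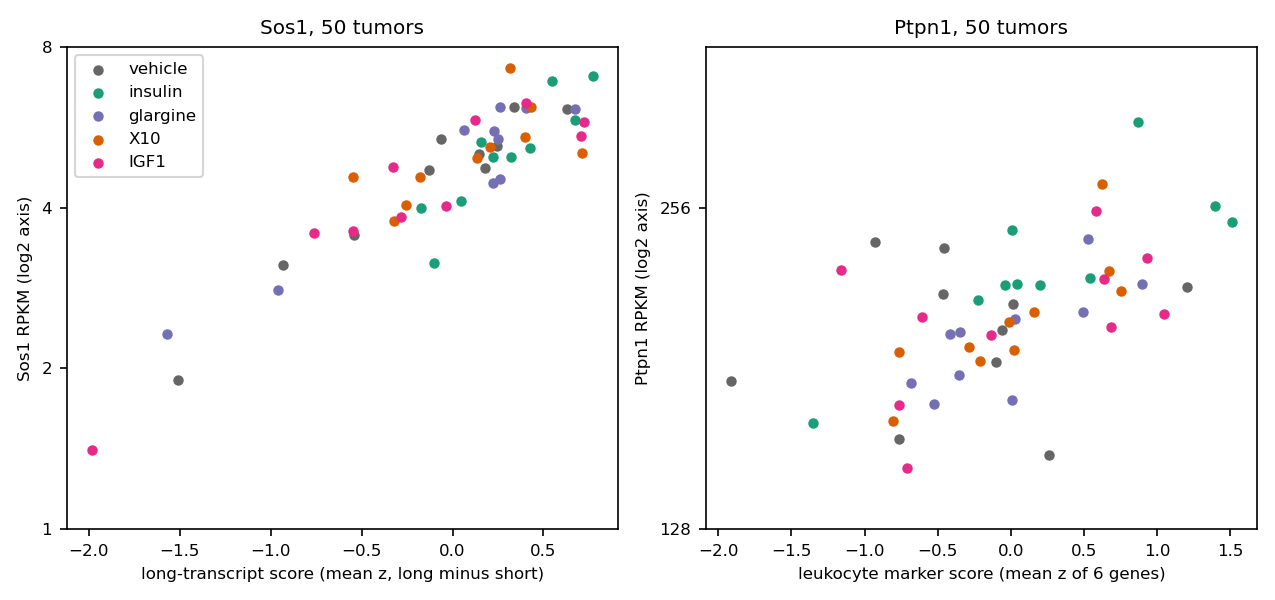
Sos1 against the long-transcript score (left) and Ptpn1 against the leukocyte marker score (right) in 50 tumors, with RPKM on a log2 axis, scores in mean z units and colors for treatment. Sos1 rises along the whole score (r = 0.91), with 3 tumors far to the left, and Ptpn1 rises with leukocyte markers (r = 0.58).

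Among all tested genes, those most like a given one over the 50 tumors are named as a description only. For Irs1 these were Hsd17b7 (r = 0.66), Unc5c (0.64) and Rasa2 (0.63). For Irs2 they were Dnmbp (r = 0.80), Lats2 (0.74) and Gm9770 (0.74), and for Grb10 they were Magt1 (r = 0.57), Xxylt1 (0.57) and Ppp3r1 (0.55). The closest gene was Gga3 for Grb2 (r = 0.74), Mef2d for Shc1 (0.66), Tgfbrap1 for Gab1 (0.77), Strn for Sos1 (0.96), Acox3 for Ptpn1 (0.73) and Prkci for Ptpn11 (0.78). Gga3 lies on the same chromosome as Grb2, at a distance of 0.0598 Mb between gene starts on GRCm38.

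Gga3 was not the only neighbour of Grb2 that followed it. Grb2 lies at chr11:115644045-115708597, and among the 50 tested genes most like it 38 lay on chromosome 11 (76.0%, against 8.36% of tested genes), 29 of them within 10 Mb. The count was 31 of 50 on chromosome 5 for Ptpn11 at chr5:121130533-121191397 (62% against 5.89%), 25 of 50 on chromosome 1 for Irs1 at chr1:82233101-82291416 (50.0% against 5.70%) and 12 of 50 on chromosome 3 for Shc1 at chr3:89418443-89430027 (24.0% against 4.73%). It was 7 (14.0% against 8.36%) for Grb10 at chr11:11930508-12038683, 6 (12.0% against 4.84%) for Gab1 at chr8:80764438-80880519, 6 (12.0% against 4.71%) for Sos1 at chr17:80393751-80480453, 4 (8.0% against 4.84%) for Irs2 at chr8:10984681-11008458 and 0 (0% against 8.40%) for Ptpn1 at chr2:167932057-167979385. Within 10 Mb lay 10 of the 12 for Shc1, but 7 of the 31 for Ptpn11 and 4 of the 25 for Irs1. This look at position was chosen after seeing the data, and it is a description across genes, which are not independent. Over the 248 tested genes within 10 Mb of Grb2 the median r with Grb2 was 0.31, against 0.09 on the rest of chromosome 11 and 0.06 on other chromosomes. For Sos1 it was 0.22 within 10 Mb and -0.11 on the rest of its chromosome. In Irs1 (0.10 against 0.18), Ptpn11 (0.06 against 0.12), Shc1 (0.09 against 0.14) and Gab1 (0.09 against 0.14) the median within 10 Mb was lower than on the rest of the chromosome. With the long-transcript score removed, that order was reversed for Ptpn11 (0.27 against 0.18) and Shc1 (0.14 against 0.07). It was kept for Irs1 (0.120 against 0.136) and Gab1 (0.116 against 0.120). Sos1 then had 0.27 against 0.14, and Grb2 0.35 against 0.09.

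A score of the neighbours, the mean z-score of all tested genes within 10 Mb without the gene itself, was compared with each of the 9 genes over the tumors. It followed Grb2 (r = 0.73, rho = 0.64, p = 1e-05, adjusted p = 4.5e-05, and r = 0.61 without the 2 tumors farthest from its median), Sos1 (r = 0.69, rho = 0.55, adjusted p = 4.5e-05, and 0.48 without the 2), Irs1 (r = 0.40, rho = 0.44, adjusted p = 0.0101, and 0.51) and Irs2 (r = 0.35, rho = 0.39, adjusted p = 0.0300, and 0.29). For Irs2 the value without the 2 tumors was not called (adjusted p = 0.0851), nor was that centred within treatments, which was 0.27 (adjusted p = 0.0914). For Ptpn11 r was 0.27 (adjusted p = 0.0865) as measured, rho was 0.41 and was called (adjusted p = 0.00668), and r was 0.64 with the long-transcript score removed. Without the 3 libraries of lowest long-transcript score, r was 0.76 for Grb2, 0.47 for Ptpn11, 0.40 for Sos1, 0.39 for Irs1, 0.34 for Irs2, 0.32 for Gab1 and 0.31 for Shc1, all called, with adjusted p of 0.0443 or less. Over all 50 tumors, Grb10 (r = 0.11, adjusted p = 0.436), Ptpn1 (r = 0.23, adjusted p = 0.115), Gab1 (r = 0.24, adjusted p = 0.110) and Shc1 (r = 0.30, adjusted p = 0.0646) were not called.

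**Figure D5:**
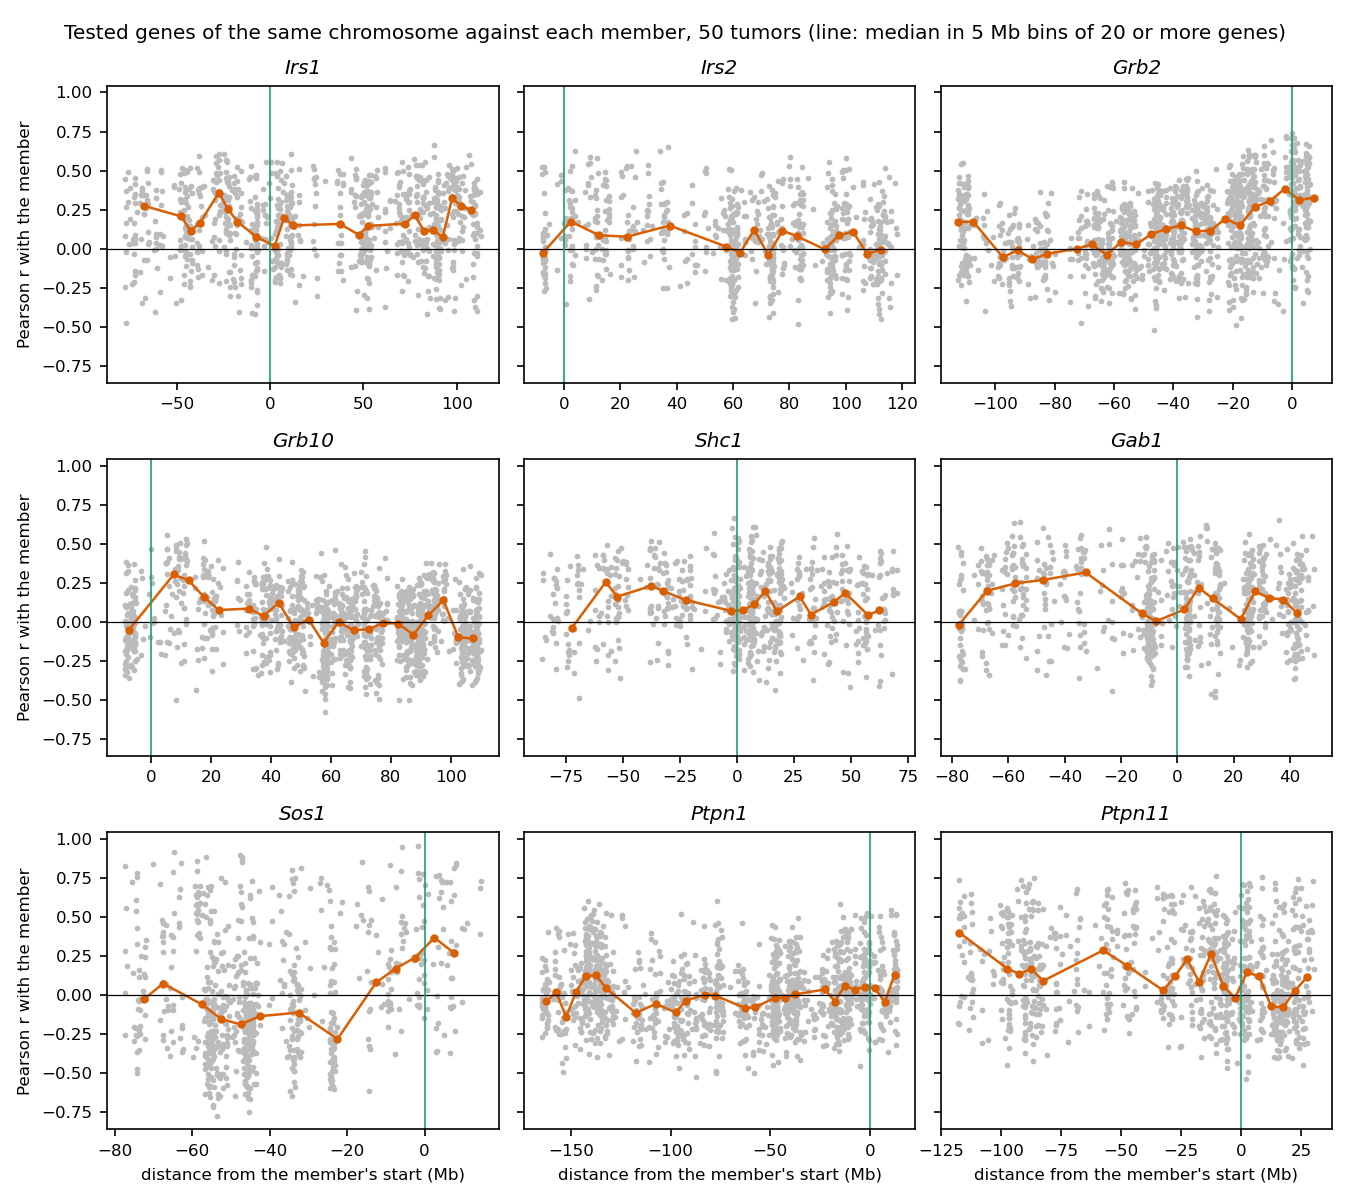
Pearson r over 50 tumors between each of the 9 genes and every tested gene of its own chromosome, plotted against the distance in Mb between gene starts on GRCm38, with the median of 5 Mb bins of 20 or more genes as a line and the gene itself at 0. For Grb2 the line climbs towards the position of the gene, where the median r within 10 Mb is 0.31, whereas for Ptpn1 it stays near 0 (0.03).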

How the data were processed

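RNA of 50 mouse MG tumors was Poly-A selected and sequenced on the Ion Proton. After alignment to GRCm38 (TopHat2 2.0.10, then Bowtie2) and counting per gene with HTSeq 0.6.1 in its default settings, the authors deposited RPKM values, normalized to library size and gene length and not log transformed; 0 columns were without a sample. The paper names DEXSeq for an RPKM table in its exon expression analysis, and does not say whether this is the deposited table. The DESeq2 1.2.10 comparisons of the authors were not used. Groups were taken from the sample titles, each tumor being from a mouse with its own number, so p-values measure the spread between tumors. The mouse numbers run within groups, so a batch tied to them cannot be told apart from treatment.

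Genes with a mean of at least 0.5 RPKM (16733 of 37701) entered 1 limma fit of log2(RPKM + 0.5) that held the 5 groups and an intensity trend (limma 3.58.1, R 4.3.3), and p-values were adjusted by Benjamini-Hochberg over these genes. Within a gene, RPKM values are whole multiples of a step. Library sizes were recovered from 5554 of 8163 short genes, whose values scaled to 100 M reads were within 0.15 of a whole number. At least 99.0% of low values in each tumor were whole reads. As the values are not counts, limma voom on the recovered reads served as an alternative. HTSeq's default is a strand-specific count and the strand of the library is not given in the sources used here, so reads of Irs1 and Gm9747, Irs2 and 9530052E02Rik, and Gab1 and Gm31105, whose exons overlap on opposite strands, may not be separated.

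Correlations used two-sided permutation tests with 100000 resamples (20000 for the added settings and for ratios without 1 tumor) in Python 3.11.15 (pandas 2.3.3, scipy 1.17.1, numpy 2.4.6, and matplotlib 3.10.9 for figures). Positions and exon lengths were taken from GENCODE M21 (GRCm38), which held 36428 of the 37701 genes, and promoter windows from RefSeq (GRCm38.p6). The marker Adgre1 carries the symbol Emr1 in the table. The 9 genes, their relatives and receptors are always named, as are the 3 genes most like Irs1, Irs2 and Grb10 and the 1 gene most like each other gene; pathway genes would be named at an adjusted p under 0.05. The 9 genes, the lists and the tests were chosen with earlier results of these data known. The alternatives changed the pseudocount (0.1 or 1), the filter (none, or a mean of 5 RPKM), the scaling (upper quartile or quantile), the trend (none) and the groups in the fit (only those compared), or used marker scores as covariates or left out each tumor. Added after seeing the data were voom, library size and the long-transcript score as covariates, leaving out the 3 tumors of lowest long-transcript score, and Dixon's criterion on the RPKM scale. The procedures were tested on simulated data.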

Additional observations from a re-analysis of the deposited data

Results flagged for a closer look

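Of the 45 sets of 10 values (9 genes in 5 groups), 5 had a lowest or highest tumor that stood far from the nearest other tumor relative to the range of its group, measured on the log2(RPKM + 0.5) scale (Dixon's criterion, critical value 0.466). Chance alone marks about 1 in 20 such groups. The 5 cases came from 3 tumors, X10_95, IGF1_145 and IGF1_160. On the RPKM scale, tried after seeing the data, 6 values were past the criterion, of which 2 were among the 5, namely Grb2 in X10_95 and in IGF1_145. The other 4 were the highest values of Irs2 in Untreated_161 (13.5 RPKM), insulin_15 (10.9 RPKM) and glargine_69 (8.57 RPKM) and of Grb10 in Untreated_197 (168 RPKM).

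Grb2 was 87.613 RPKM in X10_95, where the next X10 tumor had 58.7 RPKM. In the same tumor the neighbour score of Grb2 was 1.13, the highest of the 50 tumors. Gab1 was 3.776 RPKM in X10_95, with 5.41 RPKM in the next X10 tumor, and there its neighbour score was -1.31, the lowest of the 50 tumors. This Gab1 value was borderline: its gap relative to the range of the group was 0.466, at the critical value, and 0.381 on the RPKM scale. The long-transcript score of X10_95 was -0.55, the seventh lowest, and the part of these scores in the 2 values was not tested.

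Grb2 was 37.274 RPKM in IGF1_145, where the next IGF1 tumor had 49.8 RPKM. This tumor also had the lowest Ptpn1 level of all tumors (146 RPKM) and the lowest Shc1 level of the IGF1 group (106 RPKM). Its neighbour score was -0.17 for Grb2, -0.51 for Ptpn1 and -0.72 for Shc1, the last being the lowest of the 50 tumors.

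Sos1 was 1.406 RPKM in IGF1_160, with 3.58 RPKM in the next IGF1 tumor, and Ptpn11 was 15.645 RPKM there, with 24.5 RPKM in the next. IGF1_160 had the lowest long-transcript score of all tumors (-1.98). Its neighbour score was -1.13 for Sos1, rank 49 of 50 from the highest, and 0.09 for Ptpn11. The part of these scores in the 2 values was not tested.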

How the results depend on the processing

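Under each of the alternatives run, including leaving out each of the 50 tumors in turn and limma voom, 0 of the 9 genes were called in each of the 9 comparisons. The smallest adjusted p of any of the 9 genes was 0.109 without 1 tumor and 0.114 under another setting, both for Shc1 in X10 against insulin. Under the other settings 867 single fold changes kept their direction and their side of the threshold and 36 changed sign, and none of these 36 was called in either form; the cause was not tested. In log2 units, with quantile normalization they were 0.018 for Ptpn1 in glargine against vehicle, 0.032 for Sos1 in X10 and IGF1 against the other groups, 0.084 for Sos1 in X10 against insulin and 0.049 for Gab1 in IGF1 against insulin. With upper quartile scaling they were 0.0020 for Ptpn1 in glargine against vehicle and 0.044 for Sos1 in X10 against insulin. With marker scores as covariates they were -0.039 for Grb2 in X10 against vehicle, -0.0016 for Gab1 in X10 against vehicle, -0.014 for Ptpn1 in X10 against vehicle, -0.086 for Grb2 in IGF1 against vehicle, -0.22 for Grb10 in IGF1 against vehicle, -0.050 for Gab1 in X10 and IGF1 against the other groups and 0.010 for Sos1 in X10 against insulin. With library size as a covariate they were -0.00086 for Gab1 in glargine against vehicle, 0.00035 for Ptpn1 in glargine against vehicle, -0.064 for Gab1 in X10 against vehicle, -0.056 for Grb10 in X10 against insulin, 0.010 for Sos1 in X10 against insulin and 0.018 for Gab1 in IGF1 against insulin. With the long-transcript score as a covariate they were -0.049 for Irs2 in insulin against vehicle, -0.11 for Sos1 in insulin against vehicle, -0.078 for Ptpn11 in insulin against vehicle, -0.0044 for Sos1 in glargine against vehicle, -0.051 for Gab1 in X10 against vehicle, 0.027 for Sos1 in X10 and IGF1 against the other groups, 0.0020 for Irs1 in glargine against insulin, 0.11 for Sos1 in glargine against insulin, 0.13 for Sos1 in X10 against insulin, 0.16 for Gab1 in IGF1 against insulin and 0.075 for Sos1 in IGF1 against insulin. With the 3 tumors of lowest long-transcript score left out they were 0.032 for Ptpn1 in glargine against vehicle, -0.015 for Grb2 in X10 against vehicle, -0.040 for Gab1 in X10 against vehicle, -0.033 for Grb10 in IGF1 against vehicle, 0.013 for Sos1 in glargine against insulin and 0.078 for Gab1 in IGF1 against insulin.

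The number of correlated pairs depended on the setting: 9 of 36 as reported, 4 by rank correlation, 5 without the 2 tumors farthest from the median, 2 with the long-transcript score removed and 0 without the 3 tumors of lowest long-transcript score. Of the 63 relations with marker scores, 2 were called as reported, 4 after centring within treatments, and 1 with a pseudocount of 1, without the 2 farthest tumors, with the long-transcript score removed and without the 3 tumors. Over all tested genes the number called moved as well, from 0 to 74 beside 17 for any difference among the 5 groups, from 1 to 24 beside 11 in X10 against vehicle, from 10 to 168 beside 26 in X10 and IGF1 against the other groups, and from 5 to 222 beside 17 in X10 against insulin, where the highest counts were reached with the long-transcript score as a covariate except in X10 against vehicle (all genes with a nonzero value). No paired analysis was possible because the mouse numbers of the labels are not shared between groups.

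Each of the 9 genes had at least 204 reads in each tumor, so counting error was small beside the spread between tumors. That spread left wide intervals: for Grb10 the 95% interval in glargine against vehicle reached from 0.07 to 2.00 on the log2 scale, and for Irs1 in IGF1 from -1.48 to -0.33.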
